A study of Mus musculus with 6 samples.

Results

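The genes described here are the microtubule motors of the mouse auditory nerve: the kinesins with their light chains, cytoplasmic dynein, and dynactin, the complex through which dynein grips its cargo. They were taken from the deposited table by symbol (Kif, Klc with a digit, Dync or Dctn), with a mean over the 6 samples of at least 20 normalized counts. Of 17666 genes, 59 symbols matched and 55 passed the level. These were 38 Kif genes, 4 Klc genes, 7 Dync genes and 6 Dctn genes. The 4 that missed it were Kif12, Kif14, Kif18b and Kif2c, with means of 4.17, 7.33, 7.67 and 11.3, and the lowest 2 that passed were Kif15 and Kif22, with means of 21.7 and 22.7.

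Motors move along microtubules, which in an axon point their growing ends away from the cell body. Most kinesins walk toward those ends and carry vesicles, mitochondria and cytoskeletal proteins outward, while cytoplasmic dynein with dynactin returns endosomes and trophic signals to the cell body. Spiral ganglion neurons, whose axons form the auditory nerve, depend on both directions, and Schwann cells use the same machinery to reach their myelin. Other kinesins separate chromosomes in dividing cells, and a further dynein, dynein-2, runs inside cilia.

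The nerve was microdissected from young adult C57 mice aged 1.5 to 2.5 months, and RNA was sequenced from 3 FactorB KO mice and 3 wildtype mice, each sample pooling the 2 cochleas of 1 animal. The comparison asked how loss of complement factor B changes the nerve. The labels name no construct or breeding scheme for the knockout, and no treatment. Values are normalized counts (gene counts that the authors scaled per sample and rounded), and their totals of 38675077 to 41496282 are set by that scaling, so the read depth of each sample is unknown. Cfb, the targeted gene, went against the labels: it had counts of 336, 351 and 376 in the libraries labelled KO and 55, 39 and 116 in those labelled WT (5.08-fold higher in the authors' deposited table). Which part of Cfb the knockout removes is not given in the sources used here. Every direction given here is thus a contrast of labels. The tissue markers were present: none of 16 neuron markers and none of 10 Schwann cell markers was at 0 in any library. Of the Schwann cell markers 8 had a negative difference (median -0.23). The authors' deposited table called Pmp22 (1.69-fold) and Ncmap (1.58-fold) lower, 20% of that list, against 3.25% of all genes with a false discovery rate. Of 10 fibroblast and bone markers it called Bglap (4.33-fold), Ibsp (2.25-fold) and Lum (1.87-fold) lower, 30% of the list. Runx2, Pdgfra, Sp7 and Col1a1 of that list had a positive difference, and its median was -0.06. After the length correction described below, the medians were -0.31 over the Schwann cell markers and -0.26 over the fibroblast and bone markers. WT replicate 3 stood apart, with the neuron markers 0.65 below their mean over the 6 samples on the log2 scale and the red cell and marrow markers 2.45 above theirs. KO replicate 3 stood apart in the red cell and marrow markers too, at -2.69 from that mean. KO replicates 1 and 2 were at -0.60 and -0.81. A sample of whole tissue cannot tell fewer cells of a type from less RNA per cell.

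The upstream sequences of 4 motor genes that the authors' deposited table called are shown, as the subjects of the main comparison: the 2 called genes with the highest counts, 1 dynactin subunit that went the other way, and the kinesin of the greatest difference among the called genes. Each is the 250 bases before an annotated start in RefSeq (GRCm38.p6), 5′ to 3′ on the gene's strand. Capitals mark exact matches, on either strand, to any of 6 motifs. The box named for its letters was searched as CCAAT. The GC box was searched with the letters GGGCGG. The cyclic AMP response element was searched with the letters TGACGTCA, and the E-box with the letters CACGTG. For the core promoter box bound by TBP the letters were TATAAA, and the NRF1 motif was searched by its usual consensus. No match in these 4 windows overlaps another. Dctn1 is at chr6:83179339-83179588, + strand; Dync1h1 at chr12:110601145-110601394, + strand; Dctn3 at chr4:41723164-41723413, - strand; Kif26b at chr1:178528875-178529124, + strand.
Dctn1: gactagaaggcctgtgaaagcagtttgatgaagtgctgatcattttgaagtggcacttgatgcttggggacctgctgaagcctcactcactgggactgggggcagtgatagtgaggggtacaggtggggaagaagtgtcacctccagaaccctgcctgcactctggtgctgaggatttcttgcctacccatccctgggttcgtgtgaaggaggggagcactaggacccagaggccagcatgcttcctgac
Dync1h1: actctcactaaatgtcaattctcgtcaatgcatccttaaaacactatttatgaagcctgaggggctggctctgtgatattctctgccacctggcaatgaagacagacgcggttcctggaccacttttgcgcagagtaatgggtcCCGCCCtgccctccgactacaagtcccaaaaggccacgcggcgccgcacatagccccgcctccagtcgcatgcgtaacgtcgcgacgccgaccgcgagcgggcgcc
Dctn3: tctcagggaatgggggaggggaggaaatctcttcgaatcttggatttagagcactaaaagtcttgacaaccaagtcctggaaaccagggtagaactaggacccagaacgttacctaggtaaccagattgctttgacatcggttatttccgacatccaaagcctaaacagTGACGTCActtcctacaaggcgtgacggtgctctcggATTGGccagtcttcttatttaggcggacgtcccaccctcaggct
Kif26b: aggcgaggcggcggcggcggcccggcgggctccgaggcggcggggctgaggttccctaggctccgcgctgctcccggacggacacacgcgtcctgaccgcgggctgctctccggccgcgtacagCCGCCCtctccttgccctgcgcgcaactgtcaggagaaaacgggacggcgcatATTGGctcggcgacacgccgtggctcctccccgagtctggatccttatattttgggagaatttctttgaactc
The table lists 1 more start for Dctn1, and neither window held any of these motifs. Both Dctn1 windows lie inside the gene (chr6:83165909-83200118), so the bases before its outermost start were not searched. Dync1h1 held 1 GC box, Dctn3 held 1 CCAAT box and 1 TGACGTCA, and Kif26b held 1 CCAAT box and 1 GC box. Over the 47 windows of the 41 motor genes in the table, 57.4% held a GC box, 44.7% a CCAAT box and 8.51% TGACGTCA. Over all 32851 windows the shares were 32.7%, 33.8% and 1.55%. For TATAAA, the NRF1 motif and the E-box, the shares were 8.51%, 2.13% and 4.26% of the motor windows and 12.4%, 0.782% and 6.02% of all windows. The motor windows were also richer in G and C, with a median of 63.6% against 52.4% of all windows. A match is a description of the letters only.

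In the authors' deposited table, 7 of the 55 motor genes (12.7%) passed a false discovery rate of 0.05, against 7.39% of all genes with a rate. Higher in the libraries labelled KO were Dctn1 (1.82-fold), Dync1h1 (2.06-fold), Kif26b (2.71-fold), Kif9 (1.63-fold) and Kif7 (1.41-fold), and lower were Dctn3 and Dctn6 (1.32-fold each). The 5 higher genes are 9.09% of the motor genes, against 4.14% of all genes with a rate, and the 2 lower genes are 3.64%, against 3.25%. By limma on log2(normalized count + 1), with Benjamini-Hochberg adjustment over all 17666 genes, 0 motor genes passed an adjusted p of 0.05, against 0.158% of all genes. At an unadjusted p under 0.05, 12 motor genes were higher and 3 lower by limma, or 21.8% and 5.45% of them, against 10.8% and 9.2% of all genes. The values of the 3 KO-labelled and the 3 WT-labelled libraries did not overlap for 10 motor genes that were higher and 9 that were lower, 18.2% and 16.4% of them, against 13.6% and 14.9% of all genes. Among genes with a mean of at least 20, the level that all motor genes passed, the shares were 14.8% and 16.4%. The median log2 difference, KO minus WT, was 0.23 over the motor genes and 0.01 over all genes. Limma's call depended on single libraries. Without WT replicate 3 it called 4 motor genes, Dctn1 (0.94, adjusted p = 0.0403), Kif26a (1.01, adjusted p = 0.0388), Kif19a (0.84, adjusted p = 0.032) and Dctn5 (-0.51, adjusted p = 0.0455). Over all genes that fit called 419 of 17666. Without WT replicate 1 it called Kif26b (1.95, adjusted p = 0.047), and 87 of all 17666 genes.

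**Figure D1:**
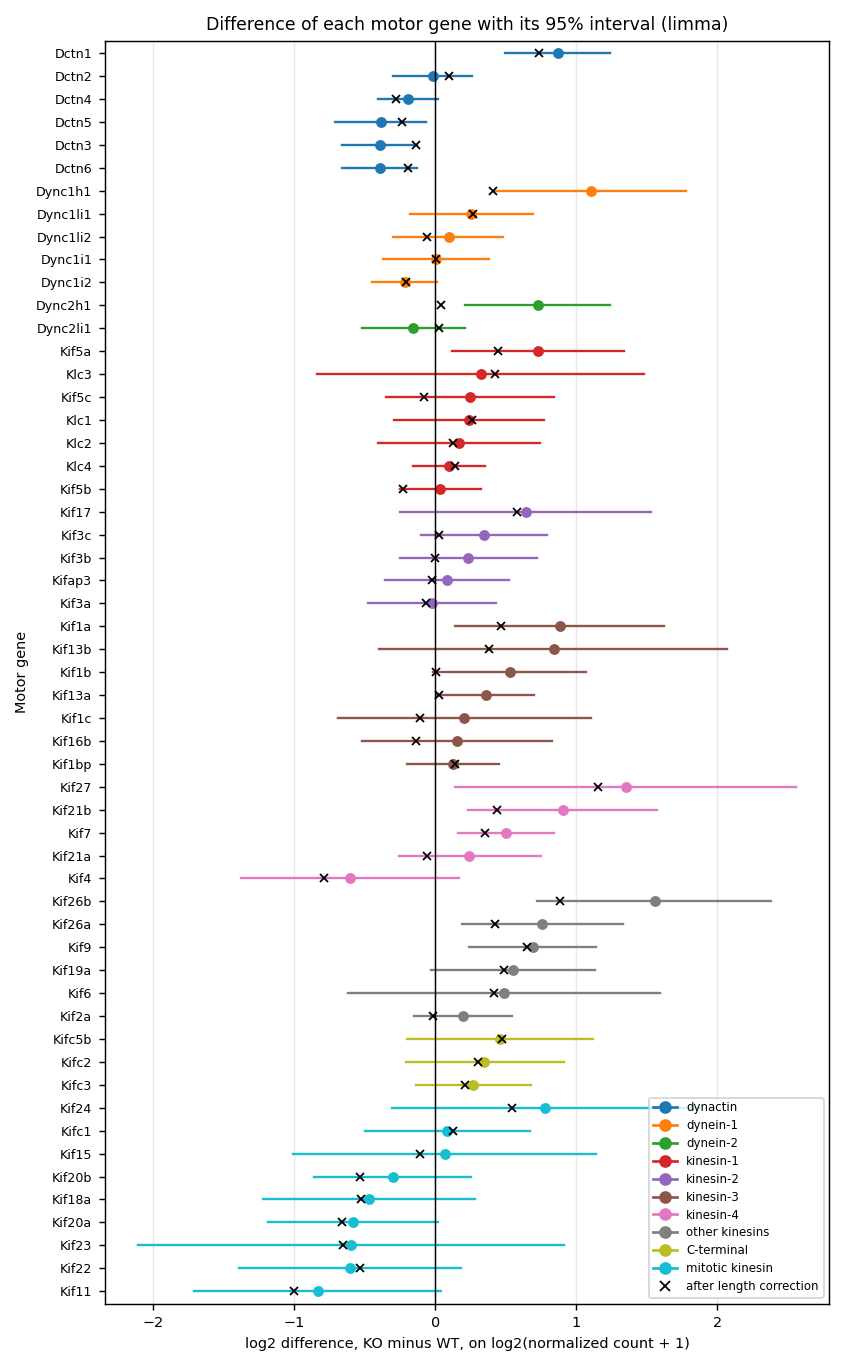
Log2 difference (KO minus WT, horizontal axis, on log2(normalized count + 1)) of the 55 motor genes, grouped by role. Dots are limma estimates, lines their 95% intervals without adjustment for the number of genes, and crosses the estimates after a correction for transcript length; Dctn1 keeps 0.74 of 0.87 after that correction, while Dync2h1 has 0.04 in place of 0.73.

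The 7 Dync and 6 Dctn genes held 2 of the 5 motor genes that the authors' deposited table called higher and both that it called lower. Of all genes with a rate, it called 4.14% higher and 3.25% lower. Dctn1 encodes the largest dynactin subunit, the arm that binds microtubules and the dynein intermediate chains. Its counts were 21382, 26992 and 26116 in the libraries labelled KO, against 14202, 11609 and 15035 in those labelled WT. Every KO-labelled value lay above every WT-labelled one. Dctn1 averaged 24830 ± 3018 in the libraries labelled KO and 13615 ± 1787 in those labelled WT (SD, n = 3 each). Limma gave a log2 difference of 0.87 with a standard error of 0.16 and a 95% interval of 0.49 to 1.24 (adjusted p = 0.137; 0.0403 to 0.485 over the alternatives). The other 5 dynactin genes were level or lower. Dctn2, dynamitin, whose excess splits the complex, averaged 8193 ± 632 and 8299 ± 727, and the groups overlapped. Dctn3, a small subunit of the shoulder, had 1957, 1917 and 1758 counts in the libraries labelled KO and 2331, 2746 and 2337 in those labelled WT. Dctn6 and Dctn5, paired subunits at the pointed end of the actin-like filament, showed the same order. Dctn6 had 1924, 1950 and 1910 counts in the libraries labelled KO and 2300, 2837 and 2505 in those labelled WT. Dctn5 had 2478, 2494 and 2375 in the libraries labelled KO and 3330, 3676 and 2693 in those labelled WT. Dctn4, also at the pointed end, averaged 4506 ± 35 and 5165 ± 135. The groups did not overlap in these 4 subunits. Their log2 differences were -0.39 for Dctn3 (limma, adjusted p = 0.171), -0.40 for Dctn6 (adjusted p = 0.167), -0.39 for Dctn5 (adjusted p = 0.197) and -0.20 for Dctn4 (adjusted p = 0.275).

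Set per length of the longest annotated transcript, Dctn1 had 2.34, 2.78 and 2.80 times the mean of Dctn2 to Dctn6 in the libraries labelled KO, and 1.28, 0.995 and 1.47 times in those labelled WT. The mean ratios were 2.64 ± 0.261 and 1.25 ± 0.241 (SD, n = 3 each; exact permutation test, two-sided, p = 0.1, the smallest that 3 samples against 3 can give). It was 1 of 12 ratios between subunits, all chosen after the values were seen, and with Benjamini-Hochberg adjustment over the 12 its p was 0.3. Dividing by a fixed length does not remove the trend of the differences with transcript length described below. This holds for all 12 ratios.

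Dync1h1, the heavy chain that holds the motor of cytoplasmic dynein, was the most counted motor gene. Its counts were 67288, 80336 and 77691 in the libraries labelled KO, against 46228, 22516 and 40832 in those labelled WT. The groups did not overlap, and WT replicate 2 lay lowest. The log2 difference was 1.10 (SE 0.29, 95% interval 0.42 to 1.78; limma, adjusted p = 0.162, 0.0705 to 0.485 over the alternatives), and 0.79 without WT replicate 2 to 1.3 without WT replicate 1. The other 4 subunits of the same motor had log2 differences of -0.22 to 0.25. Dync1i1, the intermediate chain typical of neurons, averaged 14413 ± 999 and 14507 ± 2460 counts. Dync1i2, the widely expressed intermediate chain, had 6417, 6255 and 6135 counts in the libraries labelled KO and 7366, 7640 and 6899 in those labelled WT, without overlap (log2 difference -0.22, limma, adjusted p = 0.268). The light intermediate chains, which hold the cargo adaptors, averaged 3970 ± 253 and 3396 ± 871 for Dync1li1 and 15298 ± 955 and 14506 ± 2687 for Dync1li2, and both overlapped. Per transcript length, the heavy chain had 1.67 ± 0.0803 times the mean of its 4 smaller subunits in the libraries labelled KO and 0.83 ± 0.322 times in those labelled WT (SD, n = 3 each; exact permutation test, two-sided, p = 0.1, adjusted 0.3). The transcript of Dync1h1 measures 14.3 kb and those of the 4 others 2.60 to 4.63 kb. After the length correction described below, the log2 difference of Dync1h1 was 0.41.

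**Figure D2:**
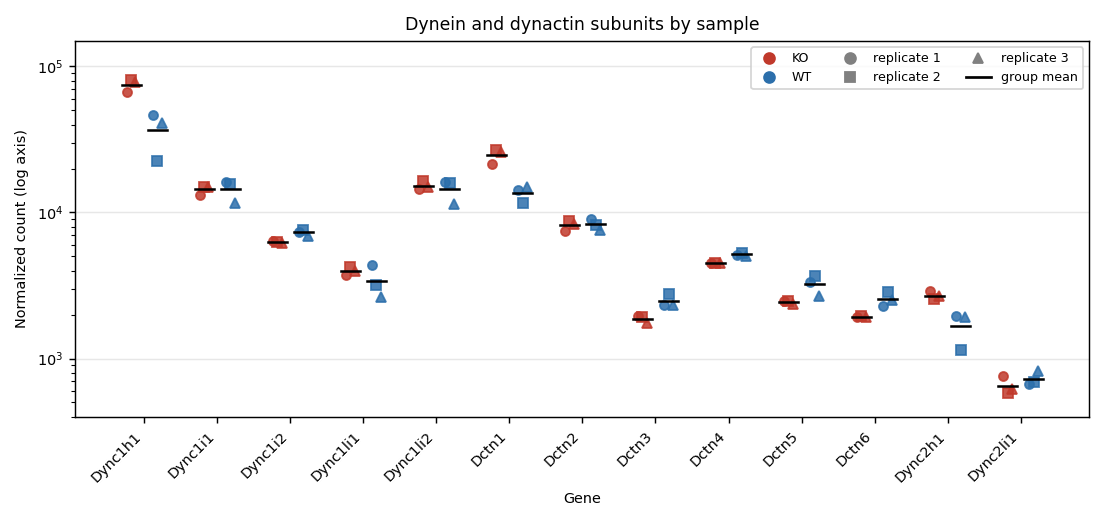
Normalized counts (log axis) of the dynein and dynactin genes in each sample, KO on the left and WT on the right of each pair; shapes are replicates and bars are group means. Dctn1, Dync1h1 and Dync2h1 are higher in all 3 libraries labelled KO, and Dctn3, Dctn4, Dctn5, Dctn6 and Dync1i2 are lower in all 3.

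Dynein-2, the motor that returns material from the tip of cilia, was measured at lower counts. Its heavy chain Dync2h1 had 2883, 2556 and 2659 counts in the libraries labelled KO and 1967, 1138 and 1934 in those labelled WT, without overlap (log2 difference 0.73, SE 0.22; limma, adjusted p = 0.176; 0.47 without WT replicate 2). Its light intermediate chain Dync2li1 averaged 650 ± 92 and 725 ± 86, and the groups overlapped.

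Transcript length went with these differences. The longest annotated transcripts of Dync1h1 and Dync2h1 measure 14.3 kb each, and those of Dctn3, Dctn6 and Dctn5 measure 0.973, 1.25 and 1.53 kb. Over the 55 motor genes, the log2 difference and log2 transcript length had a Pearson r of 0.57 and a Spearman rho of 0.55, and over the 38 motor genes with a mean of at least 500 counts r was 0.78 and rho 0.73. The same held over all 15159 genes with a mean of at least 20 and a known length (r 0.42, rho 0.50). These are descriptions over genes measured in the same 6 libraries. Over the same 15159 genes the median log2 difference was -0.24 for transcripts under 2 kb, -0.02 from 2 to 4 kb, 0.13 from 4 to 6 kb, 0.29 from 6 to 8 kb and 0.49 over 8 kb. The motor genes in these classes numbered 6, 21, 12, 9 and 7, with medians of -0.27, 0.13, 0.14, 0.25 and 0.88. In the class over 8 kb, 4 of 7 motor genes were higher without overlap, against 51.3% of the genes of that length among the 15159. Under 2 kb 3 of 6 motor genes were lower without overlap, against 33.8%.

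After the trend with length was removed from each sample, the median over the motor genes was 0.027 and over all genes -0.035. Dctn1, with a transcript of 4.32 kb, kept a log2 difference of 0.74 (limma, unadjusted p = 0.0014, adjusted p = 0.218). Dync1h1 had 0.41 (unadjusted p = 0.0411, adjusted p = 0.305), Kif26b 0.88 (adjusted p = 0.233), Kif9 0.65 (adjusted p = 0.233) and Kif7 0.35 (adjusted p = 0.29). Dctn3 and Dctn6 had -0.14 and -0.20 (adjusted p = 0.527 and 0.344), and Dync2h1 had 0.04. At an unadjusted p under 0.05, the corrected fit held 5 motor genes that were higher and 4 that were lower, 9.09% and 7.27% of them, against 6.24% and 9.32% of all genes. The higher genes were Dctn1, Dync1h1, Kif26b, Kif9 and Kif7. The lower genes were Dctn4 (-0.28, unadjusted p = 0.015), Kif11 (-1.005, unadjusted p = 0.0224), Kif20a (-0.67, unadjusted p = 0.0323) and Kif4 (-0.79, unadjusted p = 0.0343), in place of Dctn3, Dctn5 and Dctn6 in the uncorrected fit.

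**Figure D3:**
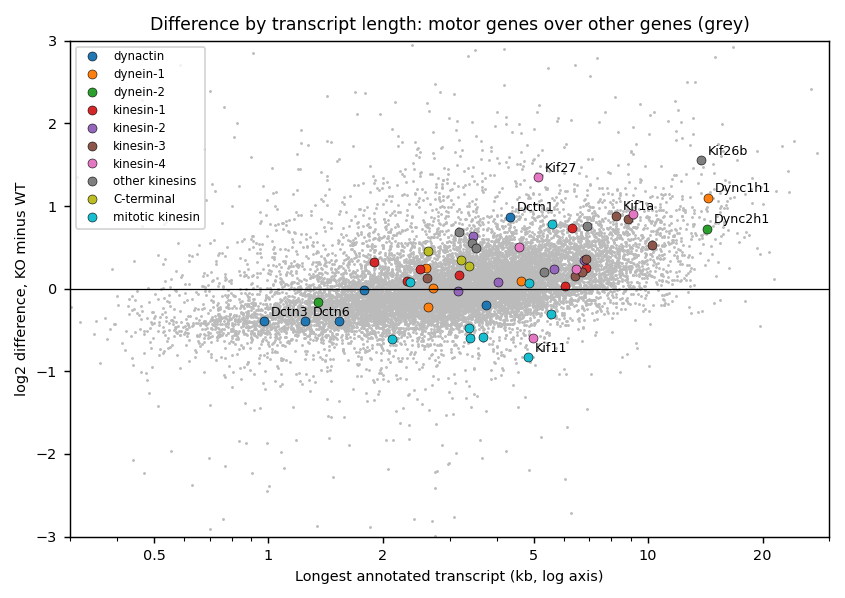
Log2 difference (KO minus WT, vertical axis) against the length of the longest annotated transcript (kb, log axis); coloured points are the 55 motor genes by role and grey points the 15072 other genes with a mean of at least 20, with 32 beyond the axes not drawn. Both sets climb from left to right, with Dctn3 and Dctn6 at the lower left and Dync1h1, Dync2h1 and Kif26b at the right.

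Kinesin-1, the main carrier of fast outward transport, pairs heavy chains (Kif5) with light chains (Klc). Kif5a, the heavy chain of neurons, had 33952, 42696 and 36136 counts in the libraries labelled KO and 33376, 18020 and 19048 in those labelled WT. The groups did not overlap, but WT replicate 1 lay just under the lowest KO-labelled library. The log2 difference was 0.73 (SE 0.26, 95% interval 0.12 to 1.34; limma, adjusted p = 0.202), 0.57 without WT replicate 2 to 1.01 without WT replicate 1, and 0.44 after the length correction. Kif5b, the heavy chain used by most cells, averaged 19941 ± 908 and 19453 ± 1044, a log2 difference of 0.04 with a 95% interval of -0.25 to 0.32. Kif5c, also neuronal, averaged 23820 ± 2738 and 20733 ± 6623, and its log2 difference was 0.25, with -0.01 without WT replicate 3 and 0.47 without WT replicate 1. Per transcript length, Kif5a made up 46.1%, 49.7% and 44.5% of the 3 Kif5 genes in the libraries labelled KO, and 42.4%, 30.7% and 37.3% in those labelled WT (exact permutation test, two-sided, p = 0.1, adjusted 0.3). Kif5b made up 26.0% ± 2.62 and 33.3% ± 6.42, and Kif5c 27.2% ± 1.5 and 29.9% ± 4.2 (SD, n = 3 each). A stretch of 87 bases of chromosome 10 (GRCm38.p6) lies in both Kif5a and Dctn2, which overlap at their ends, so reads there could have gone to either.

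Among the light chains, which bind cargo, Klc1 had the highest level per length of all motor genes, 13461 ± 1113 normalized counts per kb in the libraries labelled KO and 11703 ± 3058 in those labelled WT. Klc1 made up 72.1% ± 0.804 and 70.6% ± 2.34 of the 4 light chain genes on that scale, Klc2 21.6% ± 1.43 and 22.2% ± 1.53, and the groups overlapped for both. The log2 difference of Klc1 was 0.24 (95% interval -0.29 to 0.77), with 0.00 without WT replicate 3 and 0.38 without WT replicate 1. Klc3 had 743, 530 and 662 counts in the libraries labelled KO and 282, 401 and 1176 in those labelled WT, so 1 WT-labelled library lay above and 2 below all the others. Klc4 averaged 1925 ± 127 and 1803 ± 123.

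After Klc1, the order of levels per kb in the libraries labelled KO ran Kif1a (7309 ± 1052), Kif5a (5972 ± 723), Dctn1 (5746 ± 699), Dync1i1 (5303 ± 368), Dync1h1 (5237 ± 481) and Kif1b (4767 ± 380). In the libraries labelled WT it ran Dync1i1 (5337 ± 905), Dctn2 (4652 ± 408), Kif1a (4203 ± 1943), Kif5a (3730 ± 1364), Klc2 (3707 ± 1102) and Kif3a (3643 ± 841). Neighbours differed by less than the larger of their SDs, except that Klc1 lay above the gene after it under both labels and Kif1a above Kif5a in the libraries labelled KO.

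Kinesin-3 members carry the precursors of synaptic vesicles and other organelles. Kif1a, which delivers synaptic and dense core vesicles in neurons, had 51889, 69061 and 58976 counts in the libraries labelled KO and 52872, 24371 and 26236 in those labelled WT. WT replicate 1 fell inside the KO-labelled range, and the other 2 lay far below it. The log2 difference was 0.88 (SE 0.32, 95% interval 0.14 to 1.62; limma, adjusted p = 0.203), 0.68 without WT replicate 2 to 1.24 without WT replicate 1, and 0.46 after the length correction. Kif1b, which carries mitochondria and vesicles in its different isoforms, had 46294, 53260 and 46781 counts in the libraries labelled KO and 47117, 28593 and 28618 in those labelled WT. Its log2 difference was 0.53 (limma, adjusted p = 0.262) and 0.00 after the length correction, with a transcript of 10.2 kb. Kif1bp, the protein that binds and inhibits several kinesins, averaged 4432 ± 229 and 4088 ± 628. Kif13a was higher without overlap (3291 ± 72 and 2598 ± 465; log2 difference 0.36, limma, adjusted p = 0.237; 0.22 without WT replicate 2 and 0.03 after the length correction).

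Other kinesins were highest in WT replicate 3. Kif1c, a widely expressed kinesin-3, had 8181, 7311 and 9802 counts in the libraries labelled KO and 5220, 5229 and 13982 in those labelled WT. Kif13b had 4426, 3900 and 4724 in the libraries labelled KO and 2513, 1053 and 5389 in those labelled WT. For both, WT replicates 1 and 2 lay below every KO-labelled library and WT replicate 3 above. Kif16b and Klc3 had the same order. The log2 difference of Kif1c was 0.21, with 0.68 without WT replicate 3 and -0.03 without WT replicate 1 or without WT replicate 2. That of Kif13b was 0.84, with 1.41 without WT replicate 3, 0.24 without WT replicate 2 and 0.382 after the length correction. Kif16b had 0.15, with 0.50 without WT replicate 3 and -0.10 without WT replicate 2, and Klc3 had 0.32, with 0.92 without WT replicate 3 and -0.10 without WT replicate 1. WT replicate 3 was the highest of the 6 libraries for 9 motor genes (16.4%, against 28.3% of all genes with a mean of at least 20) and the lowest for 19 (34.5%, against 28.3%). WT replicate 2 was the lowest for 18 motor genes (32.7%, against 23.8%), and KO replicate 2 the highest for 18 (32.7%, against 14.1%).

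Kinesin-2 builds cilia and carries cargo in axons as a trimer of Kif3a, Kif3b or Kif3c, and the adaptor Kifap3. Kif3a averaged 11108 ± 912 and 11516 ± 2657 counts, with a log2 difference of -0.03 (95% interval -0.48 to 0.43) that was -0.24 without WT replicate 3 and 0.09 without WT replicate 1. Kif3c, the partner found mainly in neurons, had 17273, 21413 and 19517 counts in the libraries labelled KO and 19503, 14058 and 12761 in those labelled WT (log2 difference 0.35, limma, adjusted p = 0.342; 0.22 without WT replicate 3, 0.53 without WT replicate 1 and 0.02 after the length correction). Per transcript length Kif3c made up 41.2% ± 1.36 and 35.4% ± 3.24 of the 3 Kif3 genes (SD, n = 3 each; exact permutation test, two-sided, p = 0.1, adjusted 0.3). Kif3b made up 8.06% ± 0.483 and 7.97% ± 3.57. Kifap3 averaged 8916 ± 497 and 8597 ± 2043, and the low-level Kif17, a motor of dendrites and cilia, 91.0 ± 19.0 and 61.3 ± 28.4. The groups overlapped for all 5 genes.

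**Figure D4:**
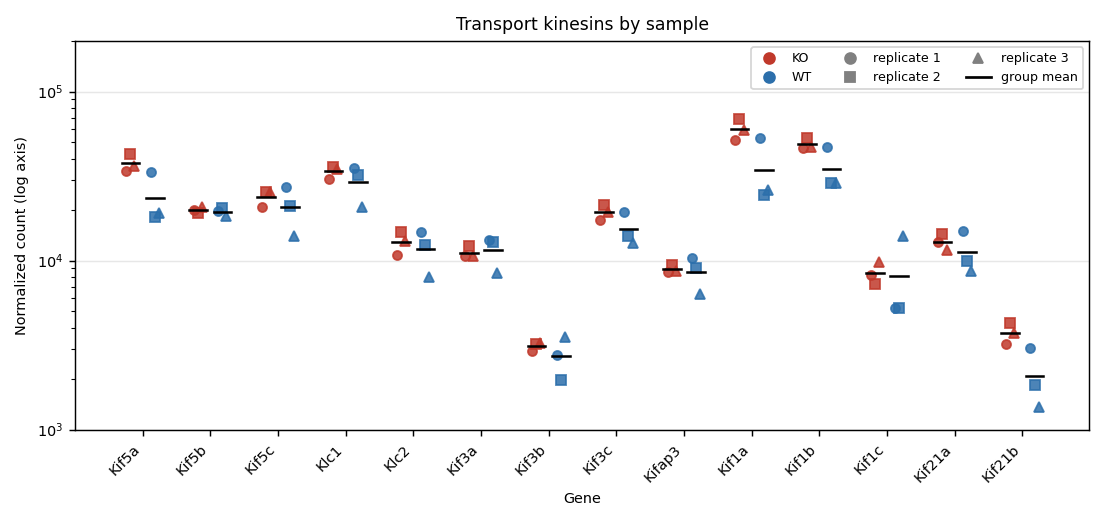
Normalized counts (log axis) of transport kinesins and light chains in each sample, KO on the left and WT on the right of each pair; shapes are replicates and bars are group means. In Kif5a, Kif1a, Kif1b and Kif21b, WT replicates 2 and 3 lie low and replicate 1 lies at or near the libraries labelled KO, while Kif5b is level over all 6.

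Kinesin-4 members tune the growth of microtubule ends. Kif21b, of dendrites and immune cells, had 3189, 4257 and 3713 counts in the libraries labelled KO and 3054, 1839 and 1368 in those labelled WT, without overlap (log2 difference 0.90, SE 0.28; limma, adjusted p = 0.182; 0.64 without WT replicate 3 to 1.22 without WT replicate 1). Its transcript measures 9.115 kb, and after the length correction the log2 difference was 0.435. Kif21a, which caps growing ends in neurons, overlapped, with 12938 ± 1474 and 11202 ± 3290 counts. Kif7, which orders the tip of the primary cilium and acts in Hedgehog signalling, had 436, 430 and 451 counts in the libraries labelled KO and 313, 278 and 342 in those labelled WT. The groups did not overlap, with a log2 difference of 0.50 (SE 0.14, 95% interval 0.16 to 0.84; limma, adjusted p = 0.171). Kif27, a relative tied to motile cilia, had 172, 129 and 49 counts in the libraries labelled KO and 59, 38 and 28 in those labelled WT, so KO replicate 3 lay inside the WT-labelled range (log2 difference 1.35, 95% interval 0.14 to 2.56).

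The highest median among the role groups, 0.62, was that of the depolymerising and unclassed kinesins. All 6 had a positive difference, as did all 7 kinesin-1, all 7 kinesin-3 and all 3 C-terminal kinesin genes, against 50.8% of all genes. After the length correction Kif2a had -0.016. Of the 6 depolymerising and unclassed kinesins the authors' deposited table called 2 higher, Kif26b and Kif9, against 4.14% of all genes with a rate. Kif26b, an atypical kinesin that acts in cell adhesion and polarity, had 805, 1056 and 943 counts in the libraries labelled KO and 551, 199 and 287 in those labelled WT. The log2 difference was 1.55 (SE 0.35, 95% interval 0.72 to 2.38; limma, adjusted p = 0.161, 0.047 to 0.485 over the alternatives). Its relative Kif26a had 478, 430 and 565 in the libraries labelled KO and 245, 239 and 407 in those labelled WT, again without overlap (log2 difference 0.76, adjusted p = 0.185). After the length correction Kif26a had a log2 difference of 0.426. Kif9, a kinesin of motile cilia and sperm tails, had 247, 298 and 210 counts in the libraries labelled KO and 165, 154 and 144 in those labelled WT, without overlap (log2 difference 0.69, SE 0.19; limma, adjusted p = 0.167). Kif19a, which keeps cilia short by depolymerising their microtubules, had 3456, 3686 and 3172 in the libraries labelled KO and 2109, 1745 and 3509 in those labelled WT, with WT replicate 3 inside the KO-labelled range (log2 difference 0.55, with 0.33 without WT replicate 2 and 0.84 without WT replicate 3). Kif2a, the depolymerase that prunes axon branches, averaged 4119 ± 189 and 3630 ± 611, and overlapped.

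All 12 hair cell and organ of Corti markers had a positive difference (median 1.45), the authors' deposited table called 5 of them higher (41.7%, against 4.14% of all genes with a rate), and none was at 0 in any library. Their summed counts were 13719 to 31948 in the libraries labelled KO and 4681 to 15813 in those labelled WT, lowest in KO replicate 3 and highest in WT replicate 3 within each label. The kinesins followed this order in part. Kif27 and Kif9 were lowest in KO replicate 3 among the libraries labelled KO, but also lowest in WT replicate 3 among those labelled WT. Kif19a was lowest in KO replicate 3 and highest in WT replicate 3 within each label. Kif26a was highest in KO replicate 3 and in WT replicate 3, and Kif26b was highest in KO replicate 2 and in WT replicate 1. The part of these markers' tissue in the differences was not tested.

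Of the C-terminal kinesins, which walk toward the cell body's end of the microtubule, Kifc2 averaged 3557 ± 514 and 2876 ± 921 and Kifc3 4670 ± 460 and 3928 ± 890, with overlap. Kifc5b averaged 93.0 ± 10.8 and 69.0 ± 19.0. It is a close copy of Kifc1, and reads could have been divided between them. Both lie on chromosome 17, and Kifc1 starts 0.98 Mb from Cfb. Kifc1 had a log2 difference of 0.08 (95% interval -0.50 to 0.67). Of the 5 motor genes of chromosome 17, Kifc1, Kifc5b, Klc4, Kif6 and Dync2li1, none was called by limma or by the authors.

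Kinesins of cell division were scarce. The 9 mitotic kinesins had means of 21.7 to 82.5 counts over the 6 samples, and their median log2 difference was -0.47. None was called by limma or by the authors, and 0 had an unadjusted p under 0.05 by limma without the length correction, against Kif11 and Kif20a with it. Kif11, which pushes the spindle poles apart, had 25, 40 and 31 counts in the libraries labelled KO and 89, 41 and 50 in those labelled WT (log2 difference -0.83, 95% interval -1.71 to 0.04; limma, adjusted p = 0.267; -0.51 without WT replicate 1 and -1.06 without WT replicate 2). The KO-labelled range ended 1 count under the WT-labelled one. Kif20a, needed for the last step of division, had 35, 45 and 44 in the libraries labelled KO and 74, 58 and 56 in those labelled WT (-0.59, adjusted p = 0.262). Kif4, a chromosome-binding kinesin-4, had 33, 36 and 31 in the libraries labelled KO and 77, 40 and 43 in those labelled WT (-0.60, adjusted p = 0.345; -0.31 without WT replicate 1). Kif20b averaged 54.0 ± 8.7 and 66.3 ± 2.3 and Kif24, which acts at the base of cilia, 100.3 ± 20.5 and 64.7 ± 35.6 (log2 difference 0.78, with 0.28 without WT replicate 2). Kif23, of the midbody, had 21, 24 and 22 counts in the libraries labelled KO and 23, 17 and 101 in those labelled WT, and its log2 difference of -0.60 was 0.16 without WT replicate 3 and -1.09 without WT replicate 2.

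Of 20 dividing cell markers, 19 had a negative difference (median -0.31) and the authors' deposited table called 1 lower, Pcna, by 1.47-fold (5%, against 3.25% of all genes with a rate). None was at 0 in any library. Their summed counts were 2400 to 2561 in the libraries labelled KO and 2807 to 3772 in those labelled WT, highest in WT replicate 3. All 14 red cell and marrow markers were lower without overlap, against 14.9% of all genes, and the authors' deposited table called 12 lower (85.7%, against 3.25%), among them Hbb-b2 and Hbb-bt, which hold identical values. Their summed counts were 2439 to 3636 in the libraries labelled KO and 9842 to 30767 in those labelled WT. Elane was the only one of these at 0 in any library. Their part in the kinesin values was not tested.

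**Figure D5:**
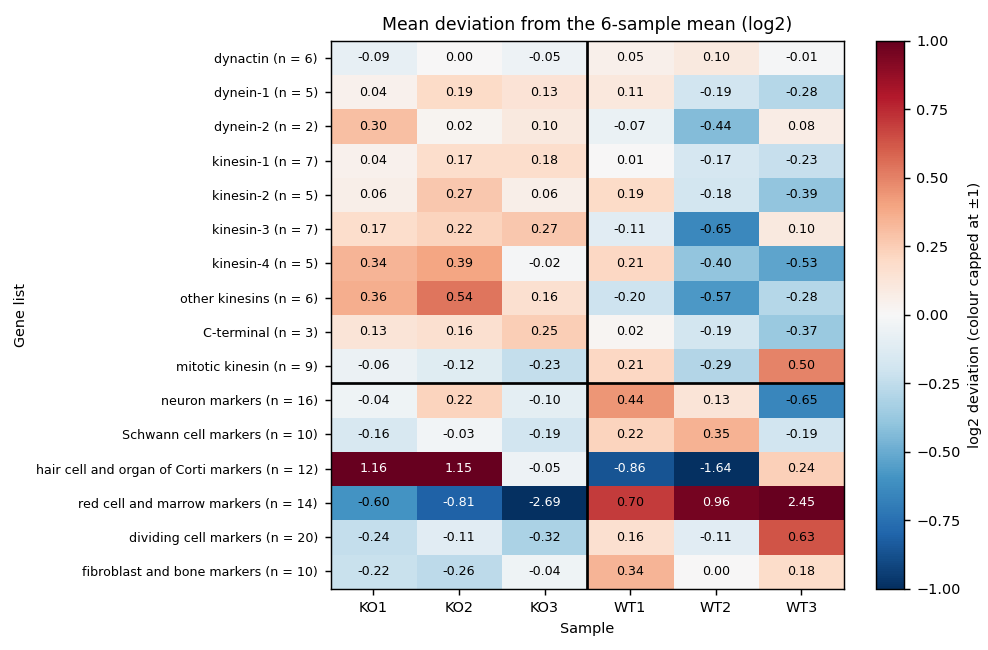
Mean deviation of each motor group (above the line) and marker list (below it) from its 6-sample mean, on the log2 scale, for the 6 samples. WT replicate 2 is low in kinesin-3 (-0.65), and WT replicate 3 is low in the neuron markers (-0.65) and high in the mitotic kinesins (0.50) and the red cell and marrow markers (2.45). KO replicate 3 is low in the red cell and marrow markers (-2.69).

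The 16 neuron markers had a median log2 difference of -0.02, none was called by limma or the authors, 0 had an unadjusted p under 0.05, and all overlapped. After the length correction the median was 0.07, with 12 of the 16 positive, against 7 uncorrected. Corrected medians were 1.27 over the hair cell and organ of Corti markers and -0.40 over the dividing cell markers. Over the 12 red cell and marrow markers with a known length it was -2.61. Deviations of the neuron markers are given next without that correction. Their mean deviation was -0.04, 0.22 and -0.10 in the libraries labelled KO and 0.44, 0.13 and -0.65 in those labelled WT. WT replicate 2, with the lowest counts of Kif1a, Kif5a and Dync1h1, was above the mean in these markers. The mean of the neuron markers was lowest in WT replicate 3, as were 19 motor genes (34.5%, against 28.3% of all genes with a mean of at least 20). Among these 19 were Klc1, Klc2, Kif5c, Kif3a, Kifap3 and Dync1i1. They also held Kif5b, the heavy chain used by most cells, and Kif2a, Kif1bp and Dync1li1.

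Partners of the motors were read from 7 further lists. None of their genes passed by limma after adjustment. Over all genes, 50.8% had a positive difference, 10.8% were higher and 9.2% lower with an unadjusted p below 0.05, and the authors called 4.14% higher and 3.25% lower. The counts of each list are read against these shares. In the intraflagellar transport list, 61.1% were positive, 16.7% higher and 5.56% lower at that p, and 5.56% called higher. Of 10 dynein light chains, small subunits outside the symbol rule, 7 had a negative difference (median -0.33), 3 were lower with an unadjusted p below 0.05. The authors' deposited table called Dynlt1b (2.08-fold) and Dynlrb1 (1.57-fold), both lower. Dynlt1b had 222, 345 and 304 counts in the libraries labelled KO and 570, 691 and 554 in those labelled WT, and belongs to a cluster of near-identical genes, so its value is uncertain. Of the 6 genes of the actin-like filament of dynactin and its caps, 5 had a negative difference (median -0.24), 3 were lower at an unadjusted p under 0.05, and none was called by the authors. Actr1a, which forms the filament, had a log2 difference of -0.11 and Capzb, of its cap, -0.20.

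Of 21 dynein regulators and activating adaptors, 16 had a positive difference (median 0.24), 7 were higher with an unadjusted p below 0.05. The authors' deposited table called Nin (1.39-fold), Ccdc88b (1.70-fold) and Ccdc88c (1.95-fold). Of 27 kinesin cargo adaptors, 18 were positive (median 0.15), 4 were higher and 1 lower with an unadjusted p below 0.05. The authors called Madd (1.68-fold), which links Kif1a and Kif1b to vesicles, Htt (1.68-fold), huntingtin, and Kidins220 (1.36-fold), all higher in their deposited table. Of 19 microtubule-associated proteins, 15 were positive (median 0.36), 6 were higher with an unadjusted p below 0.05. The authors' deposited table called Map1a (2.48-fold), Map1b (1.89-fold) and Map2 (1.46-fold). Map1a had 131024, 175640 and 165383 counts in the libraries labelled KO and 92975, 43379 and 53767 in those labelled WT. Of 18 genes of intraflagellar transport, 11 were positive (median 0.08), 3 were higher and 1 lower at an unadjusted p under 0.05, and Ift172 was called 1.67-fold higher in the authors' deposited table. Tubulins, the track itself, had 5 of 14 positive (median -0.09), none called and 0 at an unadjusted p under 0.05, with Tuba1b at -0.28 and Tuba1a at -0.38.

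The called genes of these lists also differed in transcript length. The transcripts of Map1a and Map1b measure 11.8 kb each, that of Htt 13.2 kb and that of Nin 9.92 kb, and those of Dynlrb1 and Dynlt1b 0.788 and 0.771 kb. After the length correction the log2 difference was 0.78 for Map1a, in place of 1.38, 0.35 for Map1b, in place of 0.95, and 0.27 for Map2, in place of 0.56. Htt had 0.13 in place of 0.78, Kidins220 0.08 in place of 0.45, and Nin -0.04 in place of 0.47. Madd kept 0.50 of 0.77, Ccdc88b 0.60 of 0.78, Ccdc88c 0.67 of 1.05 and Ift172 0.56 of 0.78. Dynlrb1 had -0.35 in place of -0.65 and Dynlt1b -0.77 in place of -1.07. None passed after adjustment by limma in the corrected fit. The corrected medians were -0.03 over the dynein regulators and adaptors, 0.06 over the kinesin cargo adaptors, 0.12 over the microtubule-associated proteins and -0.20 over the dynein light chains. They were 0.04 over the intraflagellar transport genes and -0.06 over the tubulins. Over dynactin's actin-like filament and its caps the median was -0.23, against -0.24 uncorrected.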

How the data were processed

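RNA sequencing measured auditory nerves of 3 FactorB KO and 3 wildtype mice. The labels' protocols name the miRNeasy kit, a Bioanalyzer check and Illumina's TruSeq RNA kit. Per the submitters' processing notes, TopHat2, Partek and DESeq2 were used with build mm10; no version is listed there, and neither strand use nor depth is given in the sources used here. The authors deposited a score per gene and sample, read from its values as counts that the authors scaled and rounded, with a signed fold change and a false discovery rate per the file headers; the rate is missing for 2061 genes. Raw counts were not used here, so no count model was run.

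Values were transformed as log2(value + 1), so that changes at low levels come out too small. The label was the only term of the fit (limma 3.58.1, R 4.3.3), with eBayes and a trend, over 17666 genes, with Benjamini-Hochberg adjustment at 0.05. A mean of at least 1 was required, which removed 0 genes. The step was tested on simulated data, but no outcome is given here, so that test is not used as support. Each sample is 1 animal, per the labels' protocols. Transcript length is the longest basic transcript of GENCODE M21 (GRCm38), found for 98.9% of genes and for all 55 motor genes. The corrected fit removed a loess curve (span 0.5) of each sample's deviation on log2 length. The alternatives changed the pseudocount, the filter, the scaling, the trend, the weights, the length correction and the replicate block, or left out 1 library. The number of sample columns not used was 0.

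The members and gene lists were chosen with earlier results of these data known. Genes were named by rule: those called by limma or by the authors, the 2 with the highest mean in each role, and up to 6 rises and 6 falls without overlap. In each partner list they were up to 4 genes called by the authors or else the 2 of the highest mean. Other motor genes were chosen after their values were seen, as were Dynlt1b's description and the ratios between subunits.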

Additional observations from a re-analysis of the deposited data

How the results depend on the processing

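With limma the count of genes called over the whole table was 28, and it was 16 with eBayes without a trend, 111 with array weights and 7 with a replicate block. It was 0 to 419 when 1 library was left out, 0 without each KO-labelled library in turn, 87, 1 and 419 without WT replicates 1, 2 and 3. The same numbers across labels did not pair the samples (correlations of deviations -0.03, 0.09 and 0.20), and KO replicates 1 and 2 correlated best with other numbers. The block left 0 motor genes called and 14 at an unadjusted p under 0.05. The count of motor genes called was 0 under every other setting and 0 to 4 when 1 library was left out. Their median difference of 0.23 was 0.027 after the length correction and 0.14 to 0.271 otherwise, with the level rule at 10 or 50 included. The length correction turned the sign of 12 of the 55 motor genes: Dync1li2 (-0.063), Dctn2 (0.099), Dync2li1 (0.023), Kif21a (-0.057), Kif2a (-0.016), Kif5b (-0.23), Kif5c (-0.08), Kif16b (-0.14), Kif1c (-0.11), Kif3b, Kifap3 and Kif15. Array weights turned 3, Dync1li2 (-0.008), Kifap3 (-0.05) and Dync1i1, quantile normalization 4 (Dync1i1, Kif5b, Kif15 and Kifc1) and upper-quartile scaling 1 (Dync1i1), and leaving out 1 library turned 2 to 8. None of these genes was called. Leaving out 1 library gave -0.072 to 0.18 for Dync1li2, -0.076 to 0.049 for Dctn2 and -0.24 to 0.086 for Kif3a. The cause was not tested. Cfb passed with array weights (adjusted p = 0.00884) and without WT replicate 3 (adjusted p = 0.00488). Of the other values of single genes, 5 passed only without 1 WT-labelled library. Read depth is unknown, so the counting error behind the scarce kinesins is too.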
